A study of Mus musculus with 4 samples.

Results

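The genes that run the cell cycle and copy DNA were compared between colon tumours of 4 mice. They were chosen by name: the A-, B-, D- and E-type cyclins, the numbered Cdk, Cdc (other than Cdc42), Mcm, Orc and Plk genes, the E2f, Bub, Aurk, Cenp, Gins, Pola, Pole and Rfc families, and Mki67, Top2a, Pcna, Cdt1 and Gmnn. This rule found 129 of the 14979 genes in the table, and 126 of them had enough tags to be tested. By textbook role, 13 of the tested genes were assigned to G1, 5 to the G1/S boundary, 34 to S phase and 37 to G2 and mitosis (G2/M). The whole E2F family was put in G1, the repressors E2f7 and E2f8 included, although a gene can act in more than 1 phase. The remaining 37 tested genes were assigned to no phase. They are called genes with other roles and are given last. They hold kinases of transcription, but also members that were missing from the role list, such as Cdc34, Cdc14a, Plk2, Mcm8 and Cenpj. The set is therefore not free of cell cycle genes. Ccnb1, Ccna1, Ccnb3 and Aurkc were not analysed here.

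The tumours were measured by cap analysis of gene expression (CAGE). It sequences the first bases of capped RNAs, so that a gene's tag count follows the number of its transcripts and not their length. All 4 mice were AOM/DSS mice, in which the carcinogen azoxymethane and the colitis-inducing agent dextran sulfate sodium give rise to inflammatory colorectal tumours. The MAdCAM1 group had been treated with an antibody to MAdCAM-1, an adhesion molecule of gut venules that admits lymphocytes, and the IgG group with control IgG. There were 2 mice in each group and 1 library from each mouse, called MAdCAM1 1, MAdCAM1 2, IgG 1 and IgG 2. Strain, age, sex, dose, timing and any batch are not given in the sources used here. The libraries held between 14850923 and 16891234 tags, and 1 tag was worth between 0.0569 and 0.07 CPM (CAGE tag counts relative to library size, with TMM factors). Fold changes are MAdCAM1 over IgG on the log2 scale, and each p is from edgeR's quasi-likelihood test adjusted over all 14331 tested genes, unless another is named.

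In a dividing cell, D-type cyclins with Cdk4 and Cdk6 phosphorylate the retinoblastoma protein and so free the E2F factors, which switch on the genes of DNA synthesis. Origins bound by the origin recognition complex are loaded with the MCM helicase by Cdc6 and Cdt1, and cyclin E and A kinases then fire them. Genes of mitosis are switched on later, through the CHR and CCAAT elements of their promoters, and their products build the spindle and kinetochores until the anaphase-promoting complex ends mitosis. In the normal colon, dividing cells sit in the lower crypt and stop dividing as they differentiate towards the surface.

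Promoters of many of these genes carry elements that time their transcription. The 8 shown were chosen among genes named in the results that follow whose promoter holds an E2F or CHR match, as defined below. That they hold such matches therefore follows from the choice. The sequences are from RefSeq's promoter table (its build is GRCm38.p6), each 300 bases long with 250 before the start site, and each was found at 1 place in GRCm39, whose coordinates are given. Capitals mark matches, on either strand, to an E2F element (TTTCCCGC, TTTCGCGC, TTTGCCGC or TTTGGCGC), the CHR (TTTGAA or TTCGAA) or the CCAAT box (CCAAT), read 5′ to 3′ in the direction of the gene. The first 4 belong to genes of the G1/S boundary and S phase, Cdk2 (chr10:128540871-128541170, minus strand), Cdt1 (chr8:123294504-123294803, plus strand), Orc1 (chr4:108436401-108436700, plus strand) and Mcm7 (chr5:138170096-138170395, minus strand), and each holds an E2F match.
Cdk2: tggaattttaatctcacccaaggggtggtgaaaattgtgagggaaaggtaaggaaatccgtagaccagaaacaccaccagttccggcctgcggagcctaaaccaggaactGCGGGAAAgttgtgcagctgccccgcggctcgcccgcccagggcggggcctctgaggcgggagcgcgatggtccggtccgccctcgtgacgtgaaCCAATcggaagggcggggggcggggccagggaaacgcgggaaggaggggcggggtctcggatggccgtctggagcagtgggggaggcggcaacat
Cdt1: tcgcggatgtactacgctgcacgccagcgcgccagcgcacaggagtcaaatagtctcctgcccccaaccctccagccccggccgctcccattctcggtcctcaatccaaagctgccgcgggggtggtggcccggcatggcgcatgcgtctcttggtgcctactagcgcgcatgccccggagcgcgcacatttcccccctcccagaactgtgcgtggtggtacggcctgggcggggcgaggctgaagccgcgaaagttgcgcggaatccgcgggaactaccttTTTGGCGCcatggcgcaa
Orc1: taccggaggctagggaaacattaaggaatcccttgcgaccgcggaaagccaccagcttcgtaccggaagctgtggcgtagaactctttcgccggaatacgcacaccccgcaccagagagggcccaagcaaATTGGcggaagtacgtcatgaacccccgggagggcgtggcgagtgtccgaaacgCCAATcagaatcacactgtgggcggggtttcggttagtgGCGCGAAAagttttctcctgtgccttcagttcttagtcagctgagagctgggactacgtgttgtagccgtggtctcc
Mcm7: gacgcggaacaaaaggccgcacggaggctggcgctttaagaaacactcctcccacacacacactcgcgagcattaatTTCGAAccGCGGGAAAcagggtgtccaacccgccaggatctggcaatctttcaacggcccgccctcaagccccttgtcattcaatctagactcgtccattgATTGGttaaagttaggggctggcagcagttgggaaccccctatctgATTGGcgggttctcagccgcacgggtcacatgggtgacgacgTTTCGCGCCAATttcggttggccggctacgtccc
The other 4 belong to genes of mitosis, Cdk1 (chr10:69188693-69188992, minus strand), Ccnb2 (chr9:70328787-70329086, minus strand), Cenpa (chr5:30823980-30824279, plus strand) and Cdc20 (chr4:118294491-118294790, minus strand), and each holds a CHR match and at least 2 CCAAT matches.
Cdk1: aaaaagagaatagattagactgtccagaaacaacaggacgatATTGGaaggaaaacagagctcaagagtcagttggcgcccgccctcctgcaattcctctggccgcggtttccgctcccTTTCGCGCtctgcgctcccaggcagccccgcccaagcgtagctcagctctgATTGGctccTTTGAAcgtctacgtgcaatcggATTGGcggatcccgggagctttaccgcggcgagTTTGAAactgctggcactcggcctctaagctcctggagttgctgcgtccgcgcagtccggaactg
Ccnb2: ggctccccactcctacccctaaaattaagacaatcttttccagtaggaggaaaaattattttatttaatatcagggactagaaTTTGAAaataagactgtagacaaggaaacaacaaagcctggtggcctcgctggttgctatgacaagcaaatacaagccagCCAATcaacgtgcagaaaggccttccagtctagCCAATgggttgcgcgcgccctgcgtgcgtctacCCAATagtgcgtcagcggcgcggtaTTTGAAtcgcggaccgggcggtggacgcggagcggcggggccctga
Cenpa: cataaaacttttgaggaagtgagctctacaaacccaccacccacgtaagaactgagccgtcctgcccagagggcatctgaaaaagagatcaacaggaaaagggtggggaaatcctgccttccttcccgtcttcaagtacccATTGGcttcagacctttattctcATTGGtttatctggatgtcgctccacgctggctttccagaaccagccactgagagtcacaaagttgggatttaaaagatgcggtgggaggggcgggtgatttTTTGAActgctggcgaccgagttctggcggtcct
Cdc20: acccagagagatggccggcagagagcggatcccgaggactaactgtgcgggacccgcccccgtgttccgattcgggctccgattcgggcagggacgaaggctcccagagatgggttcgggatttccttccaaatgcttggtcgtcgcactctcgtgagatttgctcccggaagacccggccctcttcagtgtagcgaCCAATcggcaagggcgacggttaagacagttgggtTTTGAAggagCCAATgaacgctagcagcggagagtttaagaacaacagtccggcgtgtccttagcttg
In Mcm7 an E2F match shares letters with a CCAAT match. Promoters of other named genes, such as Pcna, E2f1, Ccne1, Cenpe and Cenpx, hold neither an E2F nor a CHR match and are not shown. Some named genes with a CHR match are not shown either. Among them are Mki67, Top2a and Bub1, whose groups overlapped, and Aurka and Plk1, whose groups did not. The table's start site lay within 24 bases of a GENCODE start in all 8.

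The share of promoters with a match differed with the phase of the gene. A promoter was found for 106 of the 126 tested members, 15 of them with several windows, which were pooled by gene. An E2F match stood in 13 of 27 S phase promoters (48.1%) and in 5 of 34 G2/M promoters (14.7%), against 4.68% of the 10247 tested genes with a promoter and 2.6% of all 27025 genes in the table. A CHR match stood in 17 of 34 G2/M promoters (50.0%) and in 6 of 27 S phase promoters (22.2%), against 16.6% of tested genes and 21.7% of all. CCAAT was common everywhere, in 73.5% of G2/M promoters and 59.3% of S phase promoters, against 43.3% of tested genes and 41.1% of all. Promoters of the members with other roles were close to the background, at 3.03% for E2F, 15.2% for CHR and 42.4% for CCAAT. Different motifs shared letters in only 2 of the 124 members' windows, 1 with E2F and CCAAT and 1 with CHR and CCAAT. A match is a run of letters and was not tested as a binding site.

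**Figure D1:**
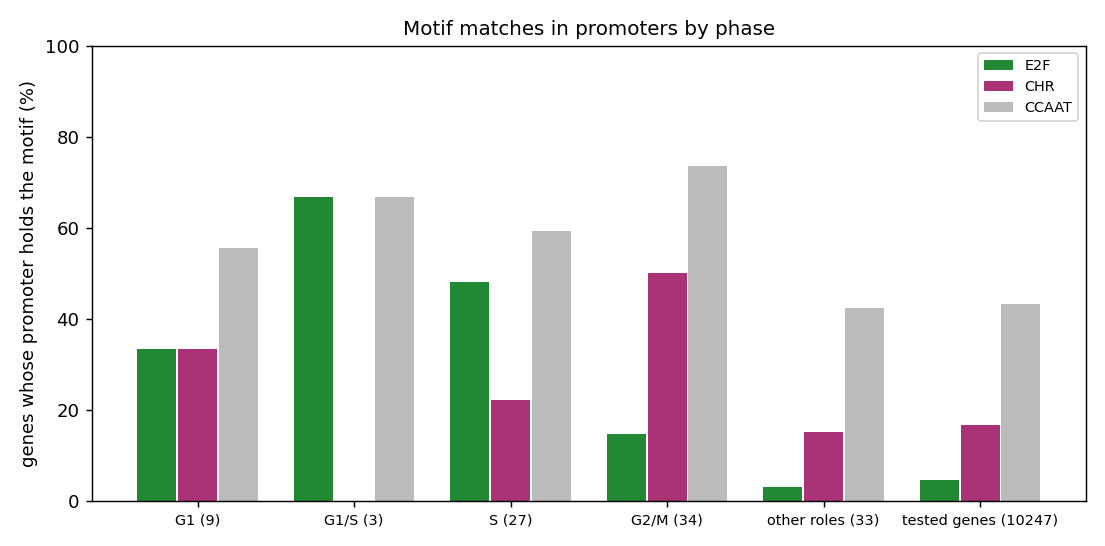
Share of genes (percent, vertical axis) whose promoter window holds an E2F, CHR or CCAAT match, for the members of each phase and for all tested genes, with the number of genes with a promoter in brackets. E2F stood in 48.1% of S phase promoters and CHR in 50.0% of G2/M promoters, against 4.68% and 16.6% of tested genes.

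The comparison of the antibodies asks whether the division machinery of these tumours was transcribed at another level after MAdCAM-1 treatment. It gave no called member. By the quasi-likelihood test 0 of 126 members were higher and 0 lower (0% and 0% of all tested genes), and the smallest adjusted p among them was 0.671. Unadjusted p fell under 0.05 for 4 members that were higher and 1 that was lower, against 5.09% and 1.82% of all tested genes. By edgeR's exact test 0 members were higher and 0 lower, where it called 1.06% and 0.0628% of all tested genes. DESeq2 likewise called 0 members higher and 0 lower, where it called 1.53% and 0.14% of all tested genes. With 2 mice a group, the differences between groups are set against a spread estimated from few samples, and an exact permutation test of 1 gene cannot go below p = 0.333.

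Over all members the groups lay close together. The lowest MAdCAM1 library was above the highest IgG library for 27 members (21.4%), against 19.7% of all tested genes. The reverse held for 19 members (15.1%), against 18.7% of all tested genes, so both shares are near the background. The median log2 fold change was 0.05, against -0.0012 over all tested genes, and the members lay between -0.49 for Cdk6 and 1.0 for Cenpi. Cenpi, a kinetochore gene, had only 8 and 28 tags in the MAdCAM1 libraries and 11 and 9 in the IgG libraries. The summed level of the members was 5740 and 5261 CPM in MAdCAM1 1 and 2, against 5580 and 5376 CPM in IgG 1 and 2. In bulk tissue, fewer cells of a type and less RNA per cell cannot be told apart.

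**Figure D2:**
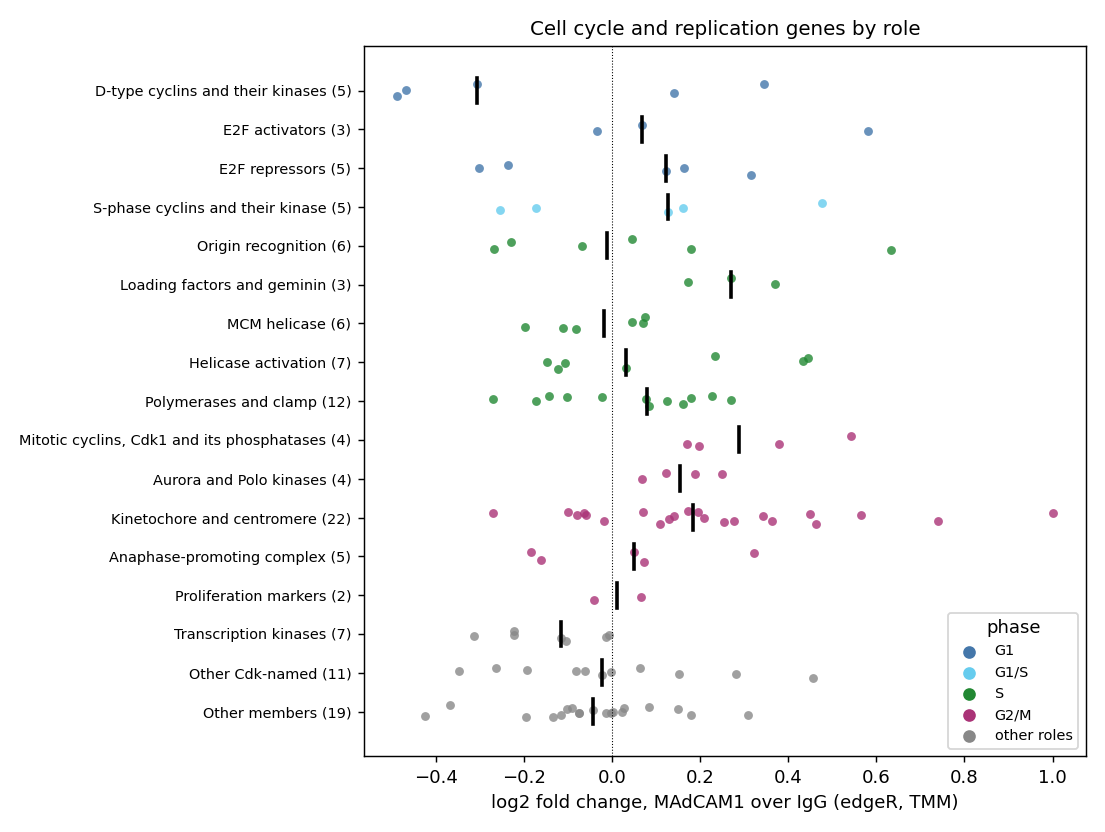
Log2 fold change of each tested member, MAdCAM1 over IgG (horizontal axis), by role (rows, number of genes in brackets), with a bar at the median of the role and colours for the phase. The D-type cyclins and their kinases have the lowest median, -0.31, and the mitotic cyclins, Cdk1 and its phosphatases the highest, 0.29.

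The G1 genes were split. Of 13, 3 were higher (23.1%) and 5 lower (38.5%) without overlap of the groups, and their median log2 fold change was 0.07. The shares over all tested genes were 19.7% and 18.7%. Cdk4, the kinase partner of the D-type cyclins (chromosome 10, 126895180 to 126903789 on GRCm39), had 169 and 132 CPM in the MAdCAM1 libraries and 197 and 219 CPM in the IgG libraries. Both MAdCAM1 values were the lower ones, and the difference on the log2 scale was -0.47 (SE 0.19, with 2 mice in each group; edgeR adjusted p = 0.731). Ccnd1, which encodes cyclin D1 and is a target of Wnt signalling in the colon (chromosome 7, 144483668 to 144493662), stood at 98.2 and 84.5 CPM in the MAdCAM1 libraries and at 110 and 116 CPM in the IgG libraries (log2 fold change -0.31, SE 0.15; edgeR adjusted p = 0.760). Cdk6, the related kinase, had 17 and 16 CPM in the MAdCAM1 libraries and 27.5 and 18.8 CPM in the IgG libraries (log2 fold change -0.49, SE 0.25; edgeR adjusted p = 0.763). In each of the other 3 scalings, 3 of the 5 genes of the D-type cyclin group were lower in MAdCAM1 without overlap. The count was the same with any 1 library left out. That adds no support, since groups already apart stay apart with fewer libraries, save for small changes of scaling. Of all tested genes, 28.6% were lower without overlap with scaling by library size alone and 32.5% to 38.7% with a library left out. Ccnd2, which encodes cyclin D2, went the other way at 71.7 and 77 CPM in the MAdCAM1 libraries and 67.7 and 49.3 CPM in the IgG libraries (log2 fold change 0.35, SE 0.20). The groups overlapped for Ccnd3, which encodes cyclin D3, at 29.1 and 37.3 CPM in the MAdCAM1 libraries and 33.1 and 27.1 CPM in the IgG libraries.

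The E2F family was divided as well. E2f1, an activator, had 13.2 and 10.7 CPM in the MAdCAM1 libraries and 10.9 and 12.0 CPM in the IgG libraries, with a log2 fold change of 0.07 (SE 0.23; edgeR adjusted p = 0.969). Its values overlapped, as did those of the activator E2f3. E2f2, the remaining activator, had 15.1 and 11.5 CPM in the MAdCAM1 libraries and 11.3 and 6.43 CPM in the IgG libraries (log2 fold change 0.58, SE 0.37; edgeR adjusted p = 0.818), where 11.5 and 11.3 CPM nearly touch. Of the repressors, E2f6 stood at 29.9 and 28.7 CPM in the MAdCAM1 libraries and at 36.5 and 35.6 CPM in the IgG libraries (log2 fold change -0.30, SE 0.15), and E2f4 at 82.6 and 90.9 CPM in MAdCAM1 and 102 and 102 CPM in IgG (log2 fold change -0.24, SE 0.13). E2f8, an atypical repressor, was higher in MAdCAM1 at 21.8 and 21.8 CPM, against 18.7 and 16.4 CPM in IgG (log2 fold change 0.31, SE 0.18). None of the 8 E2F genes was called.

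At the G1/S boundary, 1 of 5 genes was higher without overlap (20%, against 19.7% of all tested genes) and 0 lower (against 18.7%). The higher gene was Ccna2. It encodes cyclin A2, which drives S phase with Cdk2 and entry into mitosis with Cdk1 (chromosome 3, 36619014 to 36626299). Its level was 78.1 and 75.6 CPM in the MAdCAM1 libraries and 56.9 and 53.5 CPM in the IgG libraries, so that mice of the same group lay much closer to each other than to the other group. The log2 fold change was 0.48 (SE 0.13), with an unadjusted p of 0.0182 and an edgeR adjusted p of 0.691. The other 4 genes overlapped between the groups. Ccne1, which encodes cyclin E1, had 13.9 and 9.19 CPM in the MAdCAM1 libraries and 13 and 14.5 CPM in the IgG libraries (log2 fold change -0.25, SE 0.29). Cdk2, its kinase, whose promoter with 1 E2F match is printed above, had 48.3 and 39.9 CPM in the MAdCAM1 libraries and 37.6 and 43.1 CPM in the IgG libraries (log2 fold change 0.13, SE 0.18). Cdc25a, the phosphatase that activates Cdk2, and Ccne2, which encodes cyclin E2, had log2 fold changes of 0.16 and -0.17.

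**Figure D3:**
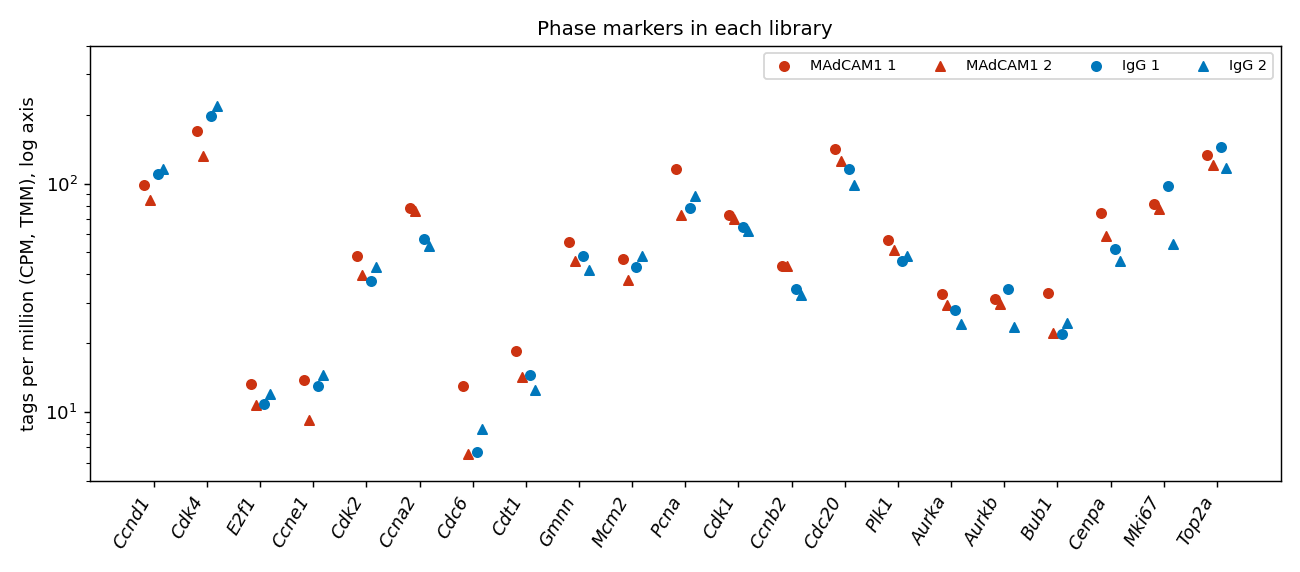
Level of 21 phase genes in each library (CPM on a log axis), with the MAdCAM1 libraries in red and the IgG libraries in blue, and genes ordered by phase. Ccna2, Cdk1, Ccnb2, Cdc20, Plk1, Aurka and Cenpa lie higher in both MAdCAM1 libraries and Ccnd1 and Cdk4 lower, while Mki67 and Top2a overlap.

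Of the 34 S phase genes, 7 were higher and 3 lower without overlap (20.6% and 8.82%, against 19.7% and 18.7% of all tested genes). The median log2 fold change was 0.06. Orc1, the largest subunit of the origin recognition complex, was the gene of this phase with the smallest p. It stood at 17.5 and 12.3 CPM in the MAdCAM1 libraries and at 9.73 and 9.46 CPM in the IgG libraries, a log2 fold change of 0.63 (SE 0.27; edgeR adjusted p = 0.739). Orc3 was also higher without overlap (log2 fold change 0.18), while Orc2, Orc4, Orc5 and Orc6 overlapped. Of these, Orc4 had 69.5 and 55.2 CPM in the MAdCAM1 libraries and 65.5 and 84.5 CPM in the IgG libraries (log2 fold change -0.27, SE 0.21). The subunits of the complex therefore had fold changes of either sign.

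The loading factors and their inhibitor had positive fold changes with overlapping groups. Cdc6, an ATPase that recruits the helicase to origins, had 13 and 6.54 CPM in the MAdCAM1 libraries and 6.66 and 8.41 CPM in the IgG libraries, so that its log2 fold change of 0.37 (SE 0.42) came from MAdCAM1 1. Cdt1, its partner, had 18.4 and 14.2 CPM in the MAdCAM1 libraries and 14.6 and 12.5 CPM in the IgG libraries (log2 fold change 0.27, SE 0.23). Gmnn encodes geminin, which binds Cdt1 and stops a second loading of the same origin. It had 55.5 and 45.8 CPM in the MAdCAM1 libraries and 48.2 and 41.7 CPM in the IgG libraries (log2 fold change 0.17, SE 0.18).

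The MCM helicase, which opens the double helix, showed no separation at any of its 6 subunits. Their log2 fold changes lay between -0.20 for Mcm7 and 0.08 for Mcm5, with SEs of 0.18 to 0.21. Mcm2 had 46.6 and 37.8 CPM in the MAdCAM1 libraries and 43.1 and 47.9 CPM in the IgG libraries (log2 fold change -0.11; edgeR adjusted p = 0.934). Mcm7, whose promoter with 2 E2F matches is printed above, had 73.6 and 52.8 CPM in the MAdCAM1 libraries and 70.5 and 74.4 CPM in the IgG libraries. For both subunits the low value was MAdCAM1 2, and the other 3 libraries were alike.

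Among the 7 genes that activate the helicase, 2 were higher and 1 lower without overlap (28.6% and 14.3%, against 19.7% and 18.7% of all tested genes). Cdc7, the kinase that phosphorylates MCM, had 7.00 and 7.32 CPM in the MAdCAM1 libraries and 5.81 and 4.70 CPM in the IgG libraries (log2 fold change 0.45, SE 0.29; edgeR adjusted p = 0.824). Mcm10, a scaffold of the active helicase, had 7.00 and 4.66 CPM in the MAdCAM1 libraries and 5.46 and 3.15 CPM in the IgG libraries, with overlap (log2 fold change 0.43, SE 0.45). Cdc45, a subunit of the active helicase, differed little (log2 fold change 0.03, SE 0.20). The GINS genes, which encode the complex that joins Cdc45 to MCM, had fold changes from -0.15 for Gins2 to 0.23 for Gins3.

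The polymerases, clamp and clamp loader were mixed, with 3 of 12 higher and 2 lower without overlap and a median log2 fold change of 0.08. These shares were 25% and 16.7%, against 19.7% and 18.7% of all tested genes. Pcna, the sliding clamp, had 116 and 72.7 CPM in the MAdCAM1 libraries and 78.1 and 88.1 CPM in the IgG libraries, so that the MAdCAM1 mice held both its highest and its lowest value (log2 fold change 0.18, SE 0.27; edgeR adjusted p = 0.929). Rfc2, a subunit of the clamp loader, had 45.4 and 41.1 CPM in the MAdCAM1 libraries and 52.0 and 52.3 CPM in the IgG libraries (log2 fold change -0.27, SE 0.14; edgeR adjusted p = 0.763). Pola2, a subunit of the primase-polymerase that starts each strand, had 26.3 and 25.1 CPM in the MAdCAM1 libraries and 22.5 and 21.3 CPM in the IgG libraries (log2 fold change 0.23, SE 0.16; edgeR adjusted p = 0.834). Pole2 and Rfc5 were the others that were higher without overlap, and Rfc1 the other that was lower. The subunits of the clamp loader thus lay on both sides of the IgG level.

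The G2/M genes leaned towards MAdCAM1. Of 37, 28 had a positive fold change (23 with scaling by library size alone), 14 were higher without overlap (37.8%, against 19.7% of all tested genes) and 2 lower (5.41%, against 18.7%), and the median log2 fold change was 0.17 (0.07 with scaling by library size alone). None of these genes passed the test. In that other scaling 10 of 37 were higher without overlap (27%, against 13.6% of all tested genes). The lean rested in part on MAdCAM1 1, since without it the median was 0.03 and 15 genes (40.5%) were higher without overlap, against 34.2% of all tested genes in that setting. The summed level of the G2/M genes was 1752 and 1652 CPM in the MAdCAM1 libraries and 1648 and 1458 CPM in the IgG libraries, where MAdCAM1 2 and IgG 1 lay side by side.

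All 4 genes of the mitotic cyclin group had positive fold changes, in all 4 scalings. Ccnb2, which encodes cyclin B2, stood at 43.8 and 43.6 CPM in the MAdCAM1 libraries and at 34.6 and 32.6 CPM in the IgG libraries, a log2 fold change of 0.38 (SE 0.14; edgeR adjusted p = 0.718). Cdk1, the kinase that starts mitosis, stood at 72.8 and 69.7 CPM in the MAdCAM1 libraries and at 64.4 and 62.1 CPM in the IgG libraries (log2 fold change 0.17, SE 0.13; edgeR adjusted p = 0.836). Neither gene overlapped between the groups, and both promoters, printed above, hold 2 CHR and 3 CCAAT matches. Cdc25c, a phosphatase that activates Cdk1, overlapped with 19.1 and 10.4 CPM in the MAdCAM1 libraries and 11.6 and 8.60 CPM in the IgG libraries (log2 fold change 0.54, SE 0.39). Cdc25b, a phosphatase of the same family, had a log2 fold change of 0.20 with an SE of 0.57.

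Of the mitotic kinases, Plk1, which acts at centrosomes, kinetochores and in cytokinesis, had 56.5 and 51.0 CPM in the MAdCAM1 libraries and 46.0 and 48.4 CPM in the IgG libraries (log2 fold change 0.19, SE 0.14; edgeR adjusted p = 0.843). Aurka, which builds the spindle poles, had 32.8 and 29.4 CPM in the MAdCAM1 libraries and 28.0 and 24.3 CPM in the IgG libraries (log2 fold change 0.25, SE 0.17; edgeR adjusted p = 0.834). Both were higher without overlap by small margins. Aurkb, the kinase of the chromosomal passenger complex, overlapped at 31.2 and 29.8 CPM in the MAdCAM1 libraries and 34.5 and 23.6 CPM in the IgG libraries (log2 fold change 0.07, SE 0.24), as did Plk4, which starts centriole duplication.

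Of the 22 kinetochore and centromere genes, 9 were higher (40.9%, against 19.7% of all tested genes) and 1 lower (4.55%, against 18.7%) without overlap. Cenpx had the smallest p of all members. It encodes a small histone-fold protein of the inner kinetochore that also serves in DNA repair (chromosome 11, 120601767 to 120604600). Its level was 107 and 128 CPM in the MAdCAM1 libraries and 77.2 and 63.3 CPM in the IgG libraries, a log2 fold change of 0.74 (SE 0.18), with an unadjusted p of 0.0126 and an edgeR adjusted p of 0.671. DESeq2 gave it an adjusted p of 0.130. Cenpw, its partner in the histone-fold complex (chromosome 10, 29991517 to 30076563), had 39.3 and 38.1 CPM in the MAdCAM1 libraries and 26.2 and 30.0 CPM in the IgG libraries (log2 fold change 0.46, SE 0.16; edgeR adjusted p = 0.710). The same complex also holds the products of Cenps and Cenpt, which overlapped between the groups with log2 fold changes of -0.08 and 0.13. The 4 genes of the complex therefore did not share a separation.

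Cenpa encodes the histone H3 variant that marks centromeres. It stood at 74.1 and 58.8 CPM in the MAdCAM1 libraries and at 51.5 and 45.8 CPM in the IgG libraries (log2 fold change 0.45, SE 0.18; edgeR adjusted p = 0.731). Cenpe, the kinesin that carries chromosomes to the metaphase plate (chromosome 3, 134918298 to 134979372), stood at 24.9 and 20.1 CPM in the MAdCAM1 libraries and at 16.7 and 13.7 CPM in the IgG libraries (log2 fold change 0.57, SE 0.22; edgeR adjusted p = 0.731). Cenpl, Cenpm, Cenpo, Cenpu and Cenpv were the other 5 that were higher without overlap, with log2 fold changes from 0.14 to 0.36. Bub3, a checkpoint protein that brings Bub1 to kinetochores, was the gene that was lower, at 86.1 and 83.4 CPM in the MAdCAM1 libraries and 100 and 104 CPM in the IgG libraries (log2 fold change -0.27, SE 0.13; edgeR adjusted p = 0.760). Bub1, the checkpoint kinase itself, had 33.3 and 22.3 CPM in the MAdCAM1 libraries and 22.0 and 24.6 CPM in the IgG libraries, a difference that rested on MAdCAM1 1 (log2 fold change 0.26, SE 0.25). Cenpf and Cenpb overlapped with fold changes close to 0.

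Of the anaphase-promoting complex genes, Cdc20, the activator that brings it its mitotic substrates, stood at 142 and 125 CPM in the MAdCAM1 libraries and at 116 and 98.5 CPM in the IgG libraries (log2 fold change 0.32, SE 0.16; edgeR adjusted p = 0.760). Cdc26, a small core subunit, went the other way at 123 and 119 CPM in the MAdCAM1 libraries and 129 and 141 CPM in the IgG libraries (log2 fold change -0.16, SE 0.14; edgeR adjusted p = 0.858). The core subunits Cdc16, Cdc23 and Cdc27 overlapped, with log2 fold changes from -0.18 to 0.07.

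The 2 usual markers of proliferation did not separate the groups. Mki67, which encodes the Ki-67 antigen used to count dividing cells (chromosome 7, 135291513 to 135318299), had 81.5 and 77.5 CPM in the MAdCAM1 libraries and 97.8 and 54.1 CPM in the IgG libraries (log2 fold change 0.07, SE 0.32; edgeR adjusted p = 0.981). Top2a, the topoisomerase that untangles chromosomes, had 133 and 121 CPM in the MAdCAM1 libraries and 144 and 117 CPM in the IgG libraries (log2 fold change -0.04, SE 0.17; edgeR adjusted p = 0.978). For both genes the IgG mice held the highest and the lowest of the 4 values.

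The libraries of 1 group were often not alike. MAdCAM1 1 had the highest value of the 4 libraries for 57 of 126 members (45.2%), against 24.4% of all tested genes, and MAdCAM1 2 for 10 members (7.94%, against 24.2%). IgG 2 had the lowest value for 54 members (42.9%), against 30.1% of all tested genes. MAdCAM1 2 had the lowest for 40 (31.7%, against 27.8%). In S phase, 16 of 34 genes were highest in MAdCAM1 1 and 16 were lowest in MAdCAM1 2, and 6 of the 34 were both. Among the G2/M genes, 23 of 37 were highest in MAdCAM1 1 and 23 were lowest in IgG 2, and 14 were both. The median log2 level of the G2/M genes relative to the mean of the 4 libraries was 0.17 and 0.01 in the MAdCAM1 libraries and -0.05 and -0.20 in the IgG libraries. For the S phase genes it was 0.13 and -0.06 in the MAdCAM1 libraries and -0.05 and 0.01 in the IgG libraries.

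**Figure D4:**
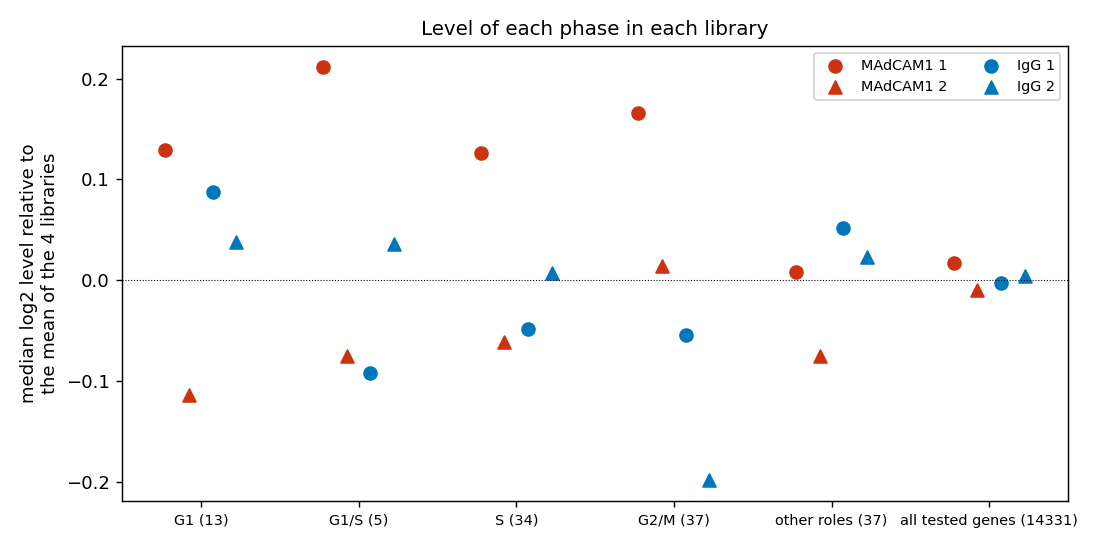
Median log2 level of the genes of each phase in each library, relative to the mean of the 4 libraries (vertical axis), with the number of genes in brackets and all tested genes at the right. MAdCAM1 1 is the highest library in G1, G1/S, S and G2/M, and IgG 2 stands lowest in G2/M at -0.20.

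Among the 37 tested genes with other roles, which include some cell cycle genes with no phase assigned, 2 were higher and 9 lower without overlap. These shares were 5.41% and 24.3%, against 19.7% and 18.7% of all tested genes, and the median log2 fold change was -0.06. With scaling by library size alone 1 was higher and 16 were lower (43.2%, against 28.6% of all tested genes), and the median was -0.16. All 7 transcription kinases had negative fold changes, between -0.31 and -0.01, and the groups were apart for 1 of them. That was Cdk13, which phosphorylates RNA polymerase II during elongation, at 41.9 and 42.2 CPM in the MAdCAM1 libraries and 56.2 and 48.1 CPM in the IgG libraries (log2 fold change -0.31, SE 0.15; edgeR adjusted p = 0.760). Cdk7, the kinase of TFIIH that also activates other Cdks, had 55.5 and 44.4 CPM in the MAdCAM1 libraries and 55.3 and 61.2 CPM in the IgG libraries, where 55.5 and 55.3 CPM overlap (log2 fold change -0.22, SE 0.18). Cdk9, the kinase that releases paused polymerase, had a log2 fold change of -0.12 (SE 0.14). Its tag counts are identical to those of the microRNA genes Mir2861 and Mir3960 in all 4 libraries, so they cannot be told apart.

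Cdc37 and Cdk2ap2 had the smallest p of the genes with other roles. Cdc37, the co-chaperone that brings kinases such as Cdk4 to Hsp90 (chromosome 9, 21044518 to 21061278), stood at 113 and 124 CPM in the MAdCAM1 libraries and at 160 and 157 CPM in the IgG libraries. The log2 fold change was -0.43 (SE 0.14), with an unadjusted p of 0.0338 and an edgeR adjusted p of 0.691. Cdk2ap2, which encodes a protein related to a Cdk2-binding protein (chromosome 19, 4146913 to 4149020), stood at 140 and 152 CPM in the MAdCAM1 libraries and at 113 and 100 CPM in the IgG libraries (log2 fold change 0.46, SE 0.15; edgeR adjusted p = 0.691). Cdc73, a subunit of the PAF1 complex of transcription elongation, had 49.4 and 48.0 CPM in the MAdCAM1 libraries and 67.2 and 58.4 CPM in the IgG libraries (log2 fold change -0.37, SE 0.15; edgeR adjusted p = 0.731). Cdk17, a kinase of the PCTAIRE family, had 29.8 and 26.5 CPM in the MAdCAM1 libraries and 37.7 and 33.9 CPM in the IgG libraries (log2 fold change -0.35, SE 0.16). None of these 4 overlapped between the groups. Cenpc1, the centromere gene that encodes CENP-C, was counted here because the role list had it under another symbol, and it overlapped with a log2 fold change of 0.15.

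Of the 129 members, 3 were too low to be tested. Cdc34b had 1 and 10 tags in the MAdCAM1 libraries and 3 and 5 in the IgG libraries. Cdk5r2 had 7 and 11 tags in the MAdCAM1 libraries and 9 and 4 in the IgG libraries. Cdk5r1 had 0 and 1 tags in the MAdCAM1 libraries and 2 and 3 in the IgG libraries, and these counts are the same as those of Sptbn4, Inka2 and Gm44418. Ccnb1ip1, a gene of meiotic crossing over, shares its counts with Rpph1, the RNA of ribonuclease P, and had 27.3 and 15.7 CPM in the MAdCAM1 libraries and 7.63 and 33.0 CPM in the IgG libraries.

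Other genes of the same pathways were taken from textbook lists, and the quasi-likelihood test called none of them. Of 8 genes of the chromosomal passengers, securin and related genes of mitosis such as Cdca2 and Cdca3, 5 were higher and 0 lower without overlap. Their median log2 fold change was 0.24. Cdca3, which helps degrade the inhibitor of mitotic entry Wee1, led them at 70.9 and 56.4 CPM in the MAdCAM1 libraries and 47.8 and 44.3 CPM in the IgG libraries (log2 fold change 0.47, SE 0.18; edgeR adjusted p = 0.718). Of 22 spindle and cytokinesis genes, 19 had a positive fold change (15 with scaling by library size alone) and 5 were higher and 0 lower without overlap (median 0.23), while 19 were lowest in IgG 2. Kif23, a kinesin of the midbody, had 32.9 and 26.4 CPM in the MAdCAM1 libraries and 23.8 and 20.2 CPM in the IgG libraries (log2 fold change 0.43, SE 0.20; edgeR adjusted p = 0.760). Of 15 genes of the spindle checkpoint and outer kinetochore, 6 were higher and 2 lower without overlap (median 0.20), led by Spc24, of the microtubule-binding NDC80 complex, at 73.1 and 58.0 CPM in the MAdCAM1 libraries and 50.3 and 48.1 CPM in the IgG libraries. Of 13 condensin and cohesin genes, 3 were higher and 0 lower (median 0.11), led by the condensin subunit Smc4 at 39.6 and 34.1 CPM in the MAdCAM1 libraries and 28.3 and 29.4 CPM in the IgG libraries. Over all tested genes, 19.7% were higher and 18.7% lower without overlap.

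Lists of DNA synthesis and of control were nearer to no difference. For their counts the background is again 19.7% of all tested genes higher and 18.7% lower without overlap. Of 19 genes of nucleotide supply and the lagging strand, 2 were higher and 0 lower without overlap (median log2 fold change 0.10), led by Pold1, the catalytic subunit of polymerase delta (log2 fold change 0.30, SE 0.24). Of 12 replication checkpoint genes, 2 were higher and 4 lower (median -0.10), led by Clspn, which encodes the checkpoint adaptor claspin (log2 fold change 0.29, SE 0.22). Of 11 genes of the pocket proteins and their DREAM partners, which repress or activate the cell cycle promoters shown above, 2 were higher and 0 lower (median -0.04), led by the DNA-binding subunit Lin54 (log2 fold change 0.38, SE 0.23). Of 14 further genes of the anaphase-promoting complex and its partners, 1 was higher and 1 lower (median 0.02). The higher was Ube2c, its ubiquitin-conjugating enzyme, at 271 and 198 CPM in the MAdCAM1 libraries and 160 and 172 CPM in the IgG libraries (log2 fold change 0.50, SE 0.21; edgeR adjusted p = 0.739).

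Of the 7 Cdk inhibitor genes, 1 was higher and 1 lower without overlap (14.3% each, against 19.7% and 18.7% of all tested genes). The lower was Cdkn2a, which encodes the Cdk4 and Cdk6 inhibitor INK4A and, from another start site, the p53 activator ARF, which are not separate in the table. It stood at 3.99 and 13.9 CPM in the MAdCAM1 libraries and at 56.7 and 34.5 CPM in the IgG libraries, a log2 fold change of -2.35 (SE 0.69). The quasi-likelihood test gave an edgeR adjusted p of 0.691, the exact test 0.100 and DESeq2 0.0263, so the call depends on the test. With any 1 library left out the log2 fold change lay between -3.51 and -1.71. The higher was Cdkn1b, which encodes the inhibitor p27, at 69.5 and 76.4 CPM in the MAdCAM1 libraries and 66 and 39.4 CPM in the IgG libraries (log2 fold change 0.47, SE 0.29; edgeR adjusted p = 0.805), and it was named after its values were seen.

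Marker genes show what tissue the libraries held. As a sum, the colon epithelium genes (9 of 9 tested) were abundant in all 4. They reached 10668 and 9215 CPM in the MAdCAM1 libraries and 6771 and 6024 CPM in the IgG libraries. Single genes could be low, such as Cdx2 at 16.9 and 9.52 CPM in MAdCAM1 and 5.52 and 3.71 CPM in IgG. Of these 9, 8 were higher in MAdCAM1 without overlap (88.9%, against 19.7% of all tested genes). Goblet cell genes (7 of 7 tested) summed to 10260 and 7202 CPM in the MAdCAM1 libraries and 2653 and 1156 CPM in the IgG libraries, and colonocyte genes (8 of 8) to 1172 and 746 CPM against 425 and 245 CPM. Like the G2/M genes, all 3 sums were highest in MAdCAM1 1 and lowest in IgG 2, and their part in the fold changes was not tested. Stem cell genes (5 of 6) summed to 536 and 338 CPM in the MAdCAM1 libraries and 505 and 614 CPM in the IgG libraries, lowest in MAdCAM1 2, the library that also held the lowest value of 16 of 34 S phase genes.

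Markers of other cell types varied between mice of the same group. B cell genes (2 of 6 tested) summed to 1.40 and 65.1 CPM in the MAdCAM1 libraries and 10.1 and 2.66 CPM in the IgG libraries. Germinal centre genes (4 of 6) ranged from 71.6 to 84.9 CPM over the 4 libraries, plasma cell genes (5 of 6) from 570 to 1059 CPM and T cell genes (5 of 8) from 15.4 to 42.6 CPM. Mef2b alone gave 44.3 to 53.0 CPM of the germinal centre sums, and Sdc1 245 to 381 CPM of the plasma cell sums. Of the 5 plasma cell genes, 2 were higher without overlap (40%, against 19.7% of all tested genes) and 0 lower (against 18.7%). Of the 4 germinal centre genes, 0 were higher and 1 was lower without overlap (25%), which was Mef2b. Jchain had 42.7 and 450 CPM in MAdCAM1 and 8.14 and 35.4 CPM in IgG. Mzb1 had 1.33 and 8.74 CPM in MAdCAM1 and 0.285 and 0.433 CPM in IgG. The groups overlapped for Prdm1, Sdc1 and Xbp1, with log2 fold changes of -0.60, -0.29 and 0.13, so the plasma cell genes went in both directions. Myeloid genes (7 of 9) ranged from 320 to 1220 CPM, fibroblast genes (6 of 6) from 399 to 1506 CPM and endothelial genes (4 of 5) from 13.3 to 49.3 CPM. Smooth muscle genes (5 of 6) summed to 106 and 1877 CPM in the MAdCAM1 libraries and 1657 and 89.1 CPM in the IgG libraries, high in 1 mouse of each group. The part of these cells in the members' levels was not tested.

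The gene with the smallest p in each marker list is given for reference by its log2 fold change. It was 0.74 for Cldn7 (epithelium), 1.51 for Krt20 (colonocytes), 2.37 for Tff3 (goblet cells) and -0.69 for Axin2 (stem cells), and DESeq2 called the first 3 with adjusted p of 0.00129, 4.2e-05 and 5.26e-09. It was 2.48 for Cd79a (B cells), -0.19 for Mef2b (germinal centre), 3.79 for Mzb1 (plasma cells), 0.38 for Cd3d (T cells), 0.40 for S100a9 (myeloid), 0.68 for Dcn (fibroblasts), 0.31 for Pecam1 (endothelium) and 0.36 for Des (smooth muscle). None was called by the quasi-likelihood test.

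Fold changes were also set beside the promoter motifs. The background for the counts that follow is 19.7% of all tested genes higher and 18.7% lower without overlap. Members with an E2F match (24 genes) had a median fold change, on the log2 scale, of 0.16, with 8 higher and 0 lower without overlap, against 0.03 with 17 higher and 13 lower for the 82 without. Members with a CHR match (31) had a median of 0.17, with 13 higher and 1 lower, against 0.05 with 12 higher and 12 lower for the 75 without. These groups differ in phase, so the same was taken within a phase. Of the 34 G2/M members with a promoter, the 17 with a CHR match had a median of 0.20 with 9 higher without overlap, and the 17 without had 0.12 with 5 higher. Of the 27 S phase members, the 13 with an E2F match had a median of 0.16 with 4 higher without overlap, and the 14 without had 0.06 with 3 higher. The remaining pairs of motif and phase were mixed. The 5 G2/M members with an E2F match had a median of 0.17, as had the 29 without. The 6 S phase members with a CHR match had a median of -0.04, against 0.08 for the 21 without. With a CCAAT match the median was 0.04 for 16 S phase members, against 0.18 for the 11 without, and 0.19 for 25 G2/M members, against 0.12 for the 9 without. Among the printed promoters, those of Orc1, Cdk1, Ccnb2, Cenpa and Cdc20 belong to genes whose groups did not overlap, and those of Cdk2, Cdt1 and Mcm7 to genes whose groups did. The printed promoters were picked from named genes, some of them named for a small p. Their split therefore follows in part from the choice and says nothing about the motifs. The values above are descriptions of the members, and no test was made of a link between motif and fold change.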

How the data were processed

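CAGE was run on RNA of AOM/DSS colon tumours from 4 mice, 2 per antibody group, with 1 library each. Per the labels' protocols, the authors aligned reads first by BWA 0.7.17 and then by HISAT2 2.0.5 to GRCm39, clustered them with RECLU, filtered clusters with bedtools 2.12.0 and named edgeR 3.22.5. How clusters were added up to genes is not given in the sources used here. The deposited values are raw tag counts per gene, in whole numbers, and 0 columns were left out.

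Here filterByExpr kept 14331 of 14979 genes, and TMM set the scaling (factors 0.962 and 0.972 for MAdCAM1, 1.04 and 1.03 for IgG). The groups were compared, MAdCAM1 minus IgG, by the robust quasi-likelihood F test of edgeR 4.0.16 (R 4.3.3) with Benjamini-Hochberg adjustment over all tested genes and a threshold of 0.05. Across genes the common biological coefficient of variation came to 0.322, with median prior degrees of freedom of 2.34. edgeR's exact test, DESeq2 1.42.0 and limma-voom (limma 3.58.1) were alternatives, beside other scalings, other filters, leaving out each library and a replicate block. The tests were checked on simulated counts. The number on a replicate marks different mice, so no pairing was used. Each gene's level is the CPM of its own counts, and depth limits genes of few tags, such as Cenpi. Each p-value sets the difference between the groups against a spread between mice that is estimated in part from other genes.

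Members, roles and gene lists were chosen with earlier results of these data known. Named genes are textbook phase markers, the 2 members per role and the 10 overall with the smallest p, the gene with the smallest p of each list, and members sharing all values with another gene, at a mean of at least 1 CPM where p decides. Other members are named as the whole of a small role or as the genes behind a count, chosen after their values were seen. Gene coordinates are from GENCODE M39 on GRCm39, which matched all 126 tested members.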

Additional observations from a re-analysis of the deposited data

How the results depend on the processing

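No member was called under any alternative. Over all genes, DESeq2 called 219 higher and 20 lower and the exact test 152 and 9, against 0 and 0 in the quasi-likelihood test. Scaling by library size alone shifted the median of all genes by -0.10, and with it the medians of all members to -0.05 (0.05 with TMM), of G1 to -0.03 (0.07), of G1/S to 0.03 (0.13), of S phase to -0.04 (0.06), of G2/M to 0.07 (0.17) and of members with other roles to -0.16 (-0.06), while members lower without overlap numbered 34 (19 with TMM). It also turned E2f1 to -0.03, Aurkb to -0.03, Mki67 to -0.03 and Ccnb1ip1 to -0.01. S100a9 turned to -0.10 with the replicate block and -0.11 with limma-voom. DESeq2 called Cdkn2a, Cldn7, Krt20 and Tff3, and the exact test Krt20 and Tff3.

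Leaving out each library in turn gave medians from -0.04 to 0.12 for all members, -0.15 to 0.21 for G1, -0.02 to 0.26 for G1/S, -0.09 to 0.13 for S phase, 0.03 to 0.25 for G2/M and -0.08 to -0.01 for other roles. Members higher without overlap then numbered 31 to 64 and lower 22 to 48, since fewer libraries overlap less. Genes whose sign turned ranged as follows. E2f1 lay from -0.09 to 0.21, Ccne1 from -0.58 to 0.01, Cdk2 from -0.02 to 0.26, Cdc6 from -0.21 to 0.78, Mcm2 from -0.27 to 0.03, Mcm7 from -0.46 to 0.02 and Pcna from -0.20 to 0.48. Aurkb lay from -0.19 to 0.36, Bub1 from -0.07 to 0.52, Mki67 from -0.30 to 0.54, Top2a from -0.19 to 0.10 and Ccnb1ip1 from -0.64 to 1.48. Among markers, Cd3d lay from -0.85 to 1.04, Cd79a from -2.29 to 3.78, Dcn from -1.14 to 1.46, Pecam1 from -0.95 to 0.96, S100a9 from -1.40 to 1.17 and Des from -3.16 to 6.64.

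With the replicate number as a block, 0 genes were called, 580 genes were higher and 116 lower at an unadjusted p under 0.05, and the G2/M median stayed at 0.17. Over genes, the deviations of same-numbered mice from their group means had a correlation of -0.15 (2 pairs). With 2 mice a group this can neither show nor exclude a pairing. Leaving out members that share values and counting Cenpc1 with G2/M, an alternative chosen after seeing the data, changed no call. Under settings that keep all libraries, 573 of 585 single-gene values kept their direction and side of the threshold, and 238 of 260 with a library left out. Of the values over gene sets, 98 of 106 and 36 of 48 moved by less than the spread between mice or, for counts, little, which does not mean that the sign of a median near 0 was kept. The unmoved values include the counts of called members, which never changed, so these shares overstate how steady the other values were. With 2 mice a group the spread within it is poorly known, and depth limits genes of few tags, such as Cenpi.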
